A study of Mus musculus with 45 samples.

Results

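The 4 ATACseq libraries at 2 h and 6 h of SOX2 depletion, 2 at each time, were set against each other, out of 45 samples in the series. They were chosen by their labels alone. The comparison asks what happens to open chromatin regions (OCRs) once the direct response to SOX2 loss is under way, namely which sites keep closing, which recover and which open between 2 and 6 h. All libraries used here came from mouse embryonic stem cells. In the SOX2-FKBP line, on the E14 background, endogenous SOX2 carries an FKBP tag through which 500 nM dTAG-13 triggers its degradation. The groups were NT (not treated with dTAG-13, given DMSO) and dTAG-13 for 0.5, 1, 2, 6 or 24 h, with 2 libraries each, and cells grew without serum in LIF with a MEK inhibitor and the GSK3 inhibitor CHIR99021. The OCT4-FKBP line (4 libraries at 2 and 6 h, on a v6.5 background) and the NANOG-FKBP line (6 libraries at those times, on the E14 background) were treated in the same way and served for comparison. SOX2-FKBP and OCT4-FKBP thus differ in background as well as in the tagged factor. By the study's methods, SOX2 depletion was done in duplicate and also in an independent clone. The labels do not say which clone or culture a library came from, so the p-values measure the spread between these libraries, which may be technical in part.

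SOX2 is a high mobility group (HMG) box transcription factor that binds, often next to the POU factor OCT4, at distal enhancers of the pluripotent cell and can bind sites within nucleosomes. ATACseq counts the places where the Tn5 transposase can insert into DNA, so a peak of fragments marks an accessible site, usually a promoter, an enhancer or an insulator. When a pioneer factor is removed, sites that it holds open itself can close within minutes, while later changes may also follow from altered levels of other factors. In a bulk library a falling peak can mean that fewer cells have the site open or that it is less open in each cell, and these cannot be told apart.

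The 2 h libraries held 9434043 and 10140571 fragments in peaks and the 6 h libraries 9850181 and 10887645, so the depth was alike. The cell type label was checked at promoters, per kb of peak. At 2 h, the stem cell genes Zfp42 and Nanog had 316 and 212 normalized counts per kb, against 17.4 to 100.5 at the promoters of 16 primitive endoderm, trophectoderm, neural, mesoderm and fibroblast genes that had a peak. Esrrb, with 50.8, lay within that range, and Pou5f1 and Tdgf1 had no peak within 500 bp of their start. None of the 20 marker promoters with a peak passed the test between 2 and 6 h, with adjusted p of at least 0.735 without and 0.344 with the replicate block described next. Libraries with the same replicate number tended to deviate together in this line, weakly over all peaks and more clearly over strong ones, so counts of calls are given both without and with the replicate number as a block.

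Few peaks changed enough between 2 and 6 h to be called. Of 160432 peaks tested, 12 were lower at 6 h (0.00748% of those tested) and 1 was higher (0.000623%) at an adjusted p under 0.05 in edgeR's quasi-likelihood test. At an unadjusted p under 0.05 the counts were 6032 lower and 4674 higher. With the block, 551 peaks were lower (0.343%) and 180 higher (0.112%), and all 13 peaks called without the block were among them. DESeq2's Wald test called 3 lower and 0 higher without the block and 22 and 2 with it, so the number of calls depends strongly on the test. Without 2 h replicate 1 edgeR called 5 lower peaks, and without any of the other 3 libraries it called none. With the block, the lower calls then numbered 190 without 2 h replicate 1, 12 without 2 h replicate 2, 95 without 6 h replicate 1 and 7 without 6 h replicate 2, and the higher calls 31, 0, 11 and 0 in the same order.

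Windows of 200 bases around the summit of 6 peaks that results below turn on are shown first, read from GRCm38 (the mm10 build) on the plus strand. Capitals mark a match on either strand to some of the motifs searched, CTCF not among them. Loxl4, Tmem132b and Rybp name the nearest protein-coding gene of 3 falling peaks that hold the TCF-LEF letters ATCAAAG, one of the motifs more frequent among falling peaks. The Loxl4 window also holds the palindromic TFAP2 letters GCCNNNGGC.
Loxl4, chr19:42620481-42620680: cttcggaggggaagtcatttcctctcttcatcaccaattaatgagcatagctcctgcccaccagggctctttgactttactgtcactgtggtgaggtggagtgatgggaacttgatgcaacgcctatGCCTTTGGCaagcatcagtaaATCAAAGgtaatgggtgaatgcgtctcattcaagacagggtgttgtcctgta
Tmem132b, chr5:125998812-125999011: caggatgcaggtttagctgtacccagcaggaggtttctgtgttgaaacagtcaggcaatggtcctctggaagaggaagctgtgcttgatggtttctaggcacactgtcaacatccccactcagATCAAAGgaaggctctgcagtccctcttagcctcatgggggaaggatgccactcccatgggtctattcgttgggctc
Rybp, chr6:100041277-100041476: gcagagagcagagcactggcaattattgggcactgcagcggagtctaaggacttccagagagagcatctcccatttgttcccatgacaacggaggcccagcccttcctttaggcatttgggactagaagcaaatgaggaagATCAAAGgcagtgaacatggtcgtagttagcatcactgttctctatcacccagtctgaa
The window near Ccnd1 holds the ESRRB letters CAAGGTCA and also a CTCF match, left in lower case. That near Lefty1 holds a SOX core (CATTGT or CTTTGT) with ATG 1 base further on, the SOX-POU composite to which SOX2 and OCT4 bind side by side. It also holds a second SOX core on the other strand.
Ccnd1, chr7:145034302-145034501: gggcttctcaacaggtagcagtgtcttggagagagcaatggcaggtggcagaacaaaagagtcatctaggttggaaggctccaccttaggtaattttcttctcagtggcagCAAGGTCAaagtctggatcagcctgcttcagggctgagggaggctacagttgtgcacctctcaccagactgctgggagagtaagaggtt
Lefty1, chr1:180924781-180924980: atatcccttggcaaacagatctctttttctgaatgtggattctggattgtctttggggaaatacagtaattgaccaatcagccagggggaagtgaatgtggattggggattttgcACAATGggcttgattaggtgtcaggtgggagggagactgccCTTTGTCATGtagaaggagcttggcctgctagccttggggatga
The last window, in Bcl11b, is that of the 1 peak called higher without the block, and none of the motifs searched occurs in it.
Bcl11b, chr12:107980079-107980278: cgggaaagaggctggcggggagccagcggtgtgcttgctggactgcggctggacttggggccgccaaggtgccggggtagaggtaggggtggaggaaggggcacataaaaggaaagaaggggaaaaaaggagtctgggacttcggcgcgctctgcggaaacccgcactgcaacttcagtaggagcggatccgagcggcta

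Among the peaks called lower, the one 25.5 kb past the start of Myc (chr15:62012293-62013085, intergenic) had the lowest level at 24 h. Myc encodes a transcription factor that promotes growth and proliferation. Its normalized counts were 121 and 129 in the NT libraries, 91.5 and 87.9 at 2 h, 37.7 and 30.7 at 6 h, and 9.71 and 5.67 at 24 h. The site was at 71.9% of NT at 2 h and at 27.4% at 6 h, a log2 fold change of -1.39 (SE 0.21, adjusted p = 0.00782). A peak 30.5 kb past the start of Cxcl12, the chemokine bound by the receptor CXCR4, followed the same course. It had 106 and 120.2 counts at 2 h and 48.7 and 44.9 at 6 h (log2 fold change -1.27, SE 0.19, adjusted p = 0.00782), and 14.6 and 14.2 at 24 h. An intronic peak of Fat2, a large atypical cadherin, went from 143 and 146 counts at 2 h to 67.1 and 56.7 at 6 h (log2 fold change -1.23, SE 0.19, adjusted p = 0.00782). None of these 3 peaks was called against NT at 0.5, 1 or 2 h. Their 2 h and 6 h libraries did not overlap, which the rule for named peaks required.

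The peak 94.5 kb before the start of Ccnd1, which encodes cyclin D1 of the G1 phase, was the 1 called peak that had already been lost at 0.5 or 1 h. It had 248 and 265 counts in NT, 54.7 and 79.6 at 2 h and 25.7 and 26.0 at 6 h, with 19.4 and 17.9 at 24 h. Its change from 2 to 6 h was -1.38 on the log2 scale (SE 0.24, adjusted p = 0.0229), so this early responder kept falling. The peak in an intron of Nrp2, a coreceptor for semaphorins and VEGF, was 33.1 kb past the start. It fell from 174 and 201 counts to 75.3 and 108 (log2 fold change -1.03, SE 0.18, adjusted p = 0.0236). Nrp2 is the 11th lowest change and the Cnbd1 peak below has too few counts, so both lie outside the rule for named peaks and were added after their values were seen.

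In a second group of called peaks the mean at 2 h was above that of NT and the mean at 6 h below it. Upstream of Adgrd1, an adhesion G protein-coupled receptor gene, a peak at -28.4 kb had 36.5 and 31.2 counts in NT, 54.7 and 59.7 at 2 h, 23.9 and 18.1 at 6 h, and 11.7 and 17 at 24 h. It was gained at 2 h and then fell by 1.45 on the log2 scale (SE 0.25, adjusted p = 0.0229). The peak 113 kb before the start of Wdr11, a WD repeat protein gene, likewise rose from 42.5 and 55.2 counts to 82.1 and 87.0 at 2 h and was at 35.8 and 38.6 at 6 h (log2 fold change -1.18, SE 0.21, adjusted p = 0.0306). Near Loxl4, of the lysyl oxidase family that cross-links extracellular matrix, the peak at -7.77 kb had 92 and 87.8 counts in NT and 106.6 and 131.8 at 2 h. It reached 58.8 and 48.1 at 6 h (log2 fold change -1.17, SE 0.19, adjusted p = 0.0175) and 20.4 and 21.7 at 24 h. An intergenic peak 246 kb past the start of Rybp, a component of variant Polycomb complexes, had 98.1 and 107.7 counts at 2 h against 39.5 and 46.5 at 6 h (log2 fold change -1.25, SE 0.21, adjusted p = 0.0229). These 4 sites had their highest mean of the time course at 1 or 2 h, though only those near Adgrd1 and Wdr11 were called as gained.

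The remaining falling peaks lay far from any protein-coding start. One was in an intron of Xkr4, a gene of the XK family of membrane proteins, with 67.0 and 76.3 counts at 2 h and 23.9 and 24.4 at 6 h (log2 fold change -1.57, SE 0.24, adjusted p = 0.00782). Another was an intergenic site 466.5 kb from Tmem132b, a transmembrane protein gene, with 70.7 and 83.7 counts at 2 h and 28.5 and 28.4 at 6 h (log2 fold change -1.44, SE 0.26, adjusted p = 0.0328). The steepest fall, -2.43 on the log2 scale (SE 0.42, adjusted p = 0.0229), was at a weak intronic peak of the non-coding gene Gm11867, whose nearest protein-coding start is that of Cnbd1. That peak had 22.6 and 41.4 counts at 2 h and 7.35 and 4.73 at 6 h, and is the least well measured of the 12.

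The 1 rising peak lay in an intron of Bcl11b, 23.2 kb past the start (chr12:107979499-107981137). Bcl11b encodes a zinc finger transcription factor best known from T lymphocyte development. The peak had 45.2 and 52.4 counts in NT, 54.7 and 49.7 at 2 h, 102 and 134 at 6 h, and 151 and 194 at 24 h. It was flat until 2 h and rose by 1.18 on the log2 scale between 2 and 6 h (SE 0.20, adjusted p = 0.0229). With offsets for the GC content of the peaks it was not called.

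**Figure D1:**
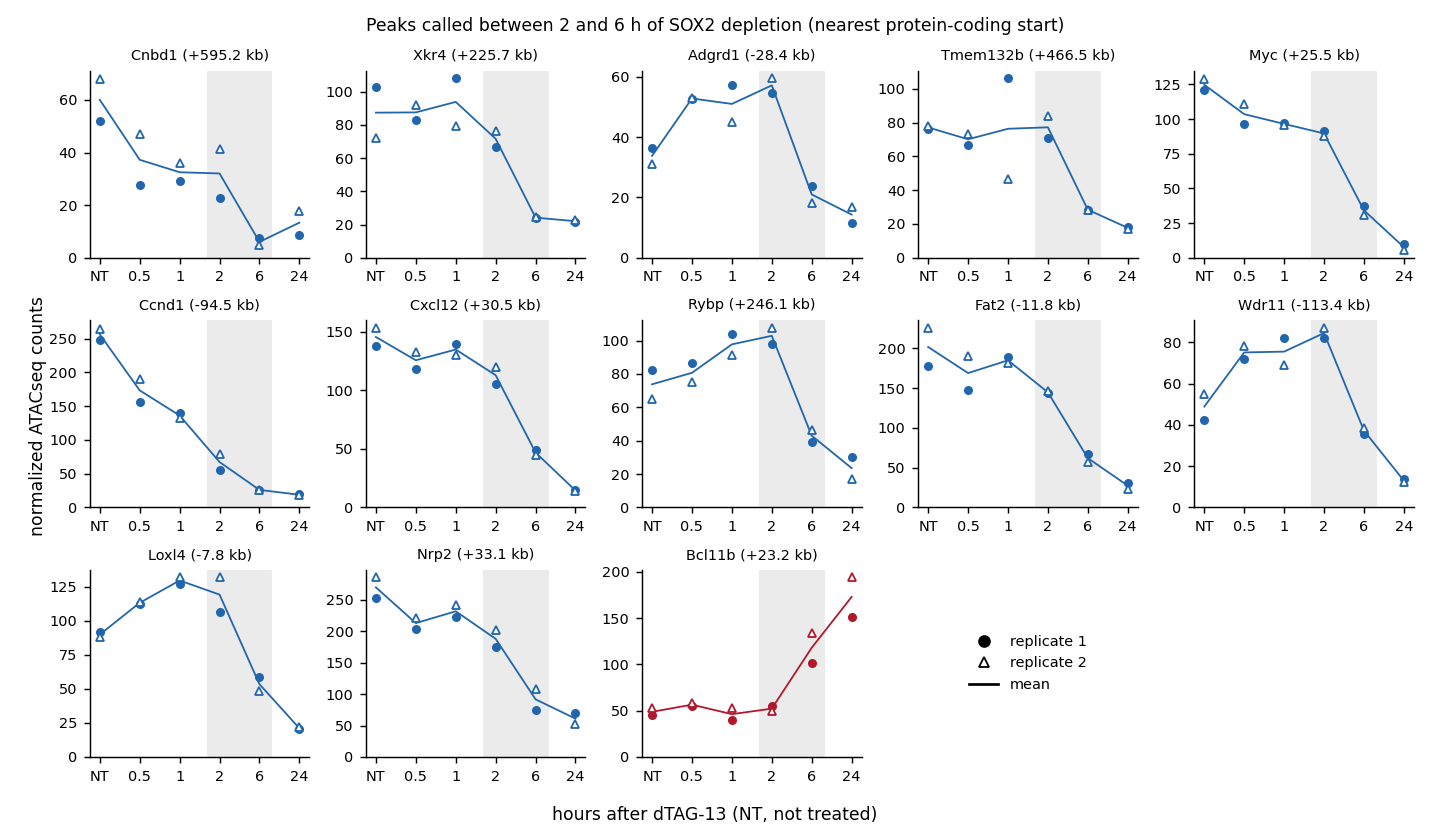
Normalized ATACseq counts (vertical axes) of the 13 peaks called between 2 and 6 h, at each time of the SOX2 time course (horizontal axes, equal steps, grey band from 2 to 6 h), with the 2 libraries as points and their mean as a line. Titles give the nearest protein-coding start and the distance to it. The 12 blue peaks drop within the band and stay low at 24 h, and the red Bcl11b peak rises from 54.7 and 49.7 to 102 and 134 counts.

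With the replicate block the lower calls had a median log2 fold change of -0.87 and the higher calls one of 0.79. The 6 h libraries lay below both 2 h libraries at all 551 lower calls and above both at 179 of the 180 higher calls, where 18.3% and 18.6% of all peaks were apart in these ways. Those shares follow from how the calls were made and are a description. Under the same naming rule, chosen here for the blocked calls after values were seen, some of the further strong falls were at sites that had already been lost at 0.5 or 1 h. A peak 6.53 kb before the start of Rcor2, a corepressor that works with the demethylase LSD1, had 71.7 and 70.5 counts at 2 h and 34.0 and 25.2 at 6 h (log2 fold change -1.28, adjusted p = 1.65e-04 with the block). Near Kcna10, a potassium channel gene, a peak went from 65.1 and 56.4 to 30.3 and 18.1 counts (-1.34, adjusted p = 1.81e-04). At both genes all 6 h values were under all 2 h values, which the naming rule required.

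The rising peaks of the blocked fit had a median of 47.2 counts in NT. Within an exon of the non-coding gene Gm37542, with Tlr5 (the flagellin receptor) as the nearest protein-coding start, a peak had 10.4 and 12.7 counts in NT, 22.6 and 23.2 at 2 h, 46.8 and 57.5 at 6 h and 117 and 126 at 24 h. It thus rose throughout the time course (6 h against 2 h, log2 fold change 1.19, adjusted p = 0.00244 with the block). A site 18.6 kb before Pdgfc, a platelet-derived growth factor, rose from 48.1 and 36.5 to 64.3 and 96.1 counts (0.94, adjusted p = 0.00386). In both peaks the 6 h libraries did not overlap the 2 h libraries, again a condition of the naming rule.

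By gene, 2 loci held 3 lower calls each with the block within 100 kb of their start, and none held 3 higher calls. Over all peaks within 100 kb of a protein-coding start, 0.308% were lower and 0.117% higher. The loci below were picked by these same calls from 18630 genes with a peak. Further genes held 2 lower calls each, so the counts are a description. Near Gjb5, a connexin gene, 3 of 24 peaks were lower, and the one with the largest fall, at the start of the non-coding gene Gm12947, went from 39.6 and 45.6 counts at 2 h to 19.3 and 18.1 at 6 h (log2 fold change -1.19, adjusted p = 0.00804). Near Tle3, a Groucho family corepressor that binds TCF-LEF factors, 3 of 50 peaks were lower, with log2 fold changes of -1.05, -0.85 and -0.73. At Nrp2 a second site, 24.2 kb before the start, fell from 83.0 and 84.5 to 48.7 and 41.8 counts (-0.90, adjusted p = 0.00609) after an early loss from 297 and 341 in NT. Upstream of Atg4c, a protease of autophagy, 2 of 16 peaks rose, the stronger one from 45.3 and 38.1 to 79.0 and 65.4 counts (0.79, adjusted p = 0.0325) and the weaker one from 6.60 and 8.29 to 21.1 and 24.4 (1.59, adjusted p = 0.0191).

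The state of a peak at 0.5 or 1 h was next set against its change between 2 and 6 h. These early libraries and NT are not part of the 6 h against 2 h contrast, though they entered its fit. Of all peaks, 9093 (5.67%) had been lost by 0.5 or 1 h, 1525 (0.951%) had been gained, and 149814 were called in neither direction. The early lost peaks went on falling. Their median accessibility was 34.7% and 38.3% of NT in the 2 h libraries and 30.03% and 32.6% in the 6 h libraries, then 23.7% and 25.5% at 24 h. The median change from 2 to 6 h was -0.18 on the log2 scale (-0.15 in both replicate pairs, with 5 counts added before the logarithm), against 0.00 for all peaks. By count, 70.0% of early lost peaks changed downwards, where 49.4% of all peaks did, and at 34.2% both 6 h libraries lay below both 2 h libraries, against 18.3% of all peaks. With the block, 141 early lost peaks were lower (1.55%, where the background is 0.343%). The median stayed negative without each library in turn, between -0.26 and -0.12.

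No peak lost at 0.5 or 1 h was called as recovering. Without the block edgeR called 0 higher at 6 h among the 9093 and DESeq2 also 0, and with the block both again called 0 (145 and 19 at an unadjusted p under 0.05). Over all peaks tested, edgeR called 1 higher without the block and 180 (0.112%) with it, and DESeq2 called 0 and 2. A count of 0 in a fit with so few higher calls says little about the early lost peaks. At an unadjusted p under 0.05 edgeR's counts without the block were 83 higher and 1077 lower, and DESeq2's 14 and 530. Among the 11680 peaks lost at 2 h against NT, 6 were higher at 6 h with the block, none of them lost at 0.5 or 1 h, and one is the Tfcp2l1 peak described further on. That definition shares the 2 h libraries with the contrast, so the count is a description. The further fall was present at every depth of early loss. Ranked by their loss at 1 h, the 2274 early lost peaks with the largest loss (median log2 fold change -2.09) had a median change of -0.24 from 2 to 6 h, and the 2273 with the smallest loss (-0.83) had one of -0.14. Such deep losses left few counts to fall from, a median of 11.4 at 2 h in the former set against 58.1 in the latter.

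Early gains faded. The 1525 peaks gained at 0.5 or 1 h stood at a median of 178% and 167% of NT in the 2 h libraries and 166% and 152% in the 6 h libraries, a median log2 change of -0.11 (-0.07 and -0.14 in the replicate pairs). With the block 49 of them (3.21%) were lower at 6 h and 5 (0.328%) higher. Among those called lower was a peak 7.64 kb before the start of Hes5, a bHLH repressor of the Notch pathway. It opened from 49.5 and 55.2 counts in NT to 102 and 83.7 at 2 h and was back at 59.7 and 52.8 at 6 h (log2 fold change -0.72, adjusted p = 0.0347 with the block). An intronic peak 93.2 kb from the nearest start, that of Smad6, an inhibitory SMAD of the BMP pathway, went from 169 and 134 to 226 and 221 and back to 157 and 136 counts (-0.62, adjusted p = 0.00893). At both sites the 6 h mean was close to that of NT, 107% for Hes5 and 96.3% for Smad6, unlike the medians of the early gained peaks.

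**Figure D2:**
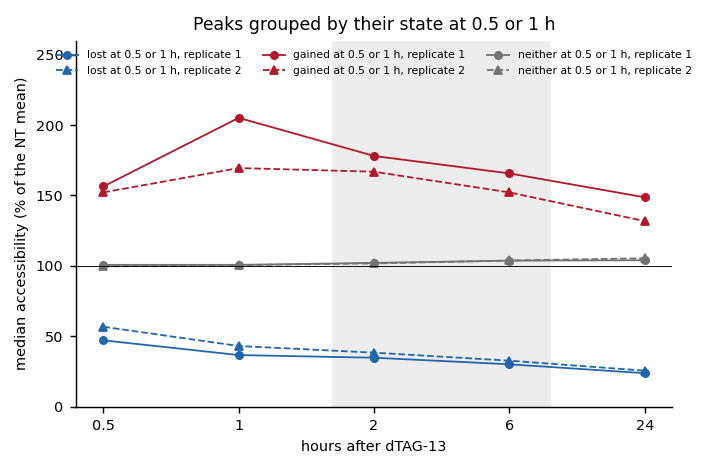
Median accessibility as a percent of the NT mean (vertical axis) by hours after dTAG-13 (horizontal axis, equal steps, grey band from 2 to 6 h) for peaks lost, gained or neither at 0.5 or 1 h, 1 line per replicate. Lost peaks fall on from 34.7% and 38.3% at 2 h to 30.03% and 32.6% at 6 h, and gained peaks decline from 178% and 167% to 166% and 152%.

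Most calls of the blocked fit were not early responders. Of the 551 lower calls 361 had been neither lost nor gained by 0.5 or 1 h, and of the 180 higher calls 175. As a share of their class, however, only 0.241% of the peaks without an early call were lower at 6 h, below the background of 0.343%.

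Rising and falling sites differed in their position. Peaks within 500 bp of an annotated start (promoters) had a median change of 0.13 on the log2 scale (0.14 and 0.10 in the replicate pairs), intronic peaks -0.01 and intergenic peaks -0.04. Promoters held 32.2% of the higher calls with the block (58 of 180) and 3.09% of the lower calls (17 of 551), against 11.6% of all peaks. Of the fragments in peaks, 28.7% and 28.9% were at promoters at 2 h and 31.4% and 30.7% at 6 h, with 33.0% and 35.2% at 24 h. Promoter peaks are GC rich (median 56.7%, and 49.5% in intronic peaks). With offsets for GC content the median of the promoters was 0.06 in place of 0.13, so its size depends on that choice. In the other lines the promoter medians were 0.07 (OCT4-FKBP) and 0.01 (NANOG-FKBP). Among named promoters, that of Tet3, which oxidizes 5-methylcytosine, rose from 107.5 and 98.6 counts at 2 h to 163.5 and 160.8 at 6 h (log2 fold change 0.65, adjusted p = 0.0130 with the block). The promoter of Bmpr1a, a BMP receptor, rose from 142.4 and 118.5 to 195.6 and 186.8 counts (0.55, adjusted p = 0.0479).

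**Figure D3:**
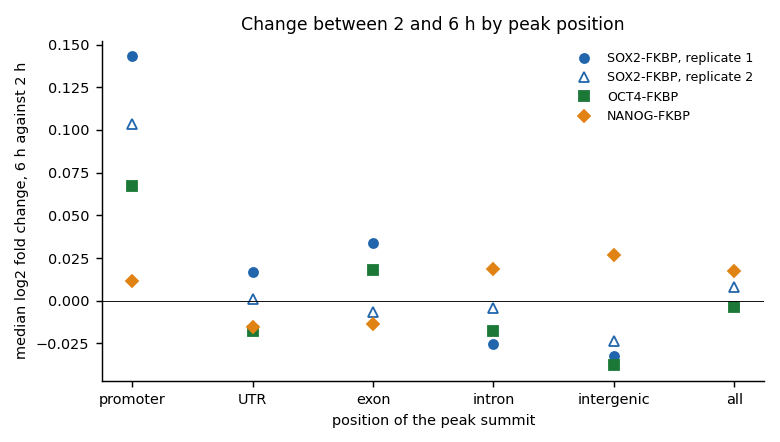
Median log2 fold change from 2 to 6 h (vertical axis) of peaks by the position of their summit (horizontal axis), for each replicate pair of SOX2-FKBP and for the fits of OCT4-FKBP and NANOG-FKBP. Promoters are highest in both SOX2-FKBP pairs, at 0.14 and 0.10, and in OCT4-FKBP, at 0.07.

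The genes near the changing peaks were read through 13 lists of pluripotency, lineage and signaling genes. Without the block no list held a called peak, and edgeR's smallest adjusted p on a list was 0.0665, near Socs3. With the block 11 lower and 5 higher calls fell on list genes, and no list had a median beyond -0.10 or 0.08 on the log2 scale (all peaks within 100 kb of a protein-coding start, 0.01). Over all those peaks 0.308% were lower and 0.117% higher with the block, so the counts of each list below are too small to set it apart from that background. Near the 15 genes of the naive network 0 of 406 peaks were lower and 1 was higher, near the 10 SOX2-OCT4 core and classic target genes 0 of 171 were called, and near the 12 formative genes 0 of 159. These are counts of edgeR's calls with the block. The single naive call lay in an intron of Clasp1, 38.1 kb before the start of Tfcp2l1, a transcription factor of the naive state. It had dropped from 33.0 and 42.5 counts in NT to 13.2 and 17.4 at 2 h and was at 31.2 and 35.5 at 6 h (log2 fold change 1.11, adjusted p = 0.0436), back near its NT level. The strongest candidates on the other lists without a call included a peak 20.0 kb before Foxd3, a forkhead repressor, with 252 and 279 counts at 2 h and 189 and 191 at 6 h (-0.48, adjusted p = 0.0562), and the Lef1 promoter, with 31.1 and 45.6 counts at 2 h and 57 and 68.6 at 6 h (0.70, adjusted p = 0.0967).

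Calls on signaling genes were single peaks of mixed direction, few enough to lie near the background of 0.308% lower and 0.117% higher. In the Nodal list, 1 of 118 peaks was called, 10.1 kb before the start of Lefty1, which encodes a Nodal antagonist, at the window with the SOX-POU composite shown above. It fell from 303 and 316 counts in NT to 125 and 142 at 2 h, to 74.4 and 71.7 at 6 h and to 12.6 and 23.6 at 24 h, with a change of -0.87 (adjusted p = 9.48e-04) from 2 to 6 h. In the LIF-STAT3 and BMP list 2 of 278 peaks were lower and 2 higher. Near Socs3, the feedback inhibitor of JAK-STAT signaling, a peak fell from 66.0 and 83.7 counts at 2 h to 31.2 and 36.3 at 6 h (-1.15, adjusted p = 3.4e-04), and in Lifr, which encodes the LIF receptor, an intronic peak rose from 17.9 and 15.8 to 35.8 and 34.7 (1.07, adjusted p = 0.0496). Both Lifr values at 6 h were above both at 2 h, but the call is at the threshold. Around Nkd1, a Wnt feedback inhibitor, the peak at 26.4 kb fell from 205.6 and 213.0 counts to 162.6 and 123.7 (-0.56, adjusted p = 0.0283) and the one at -62.0 kb rose from 33.0 and 27.4 to 47.8 and 61.5 (0.87, adjusted p = 0.0401). These were the only 2 calls among 251 peaks of the Wnt list.

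The same background applies to the remaining lists. In the trophectoderm list 1 of 195 peaks was lower, 26.4 kb past the start of Tfap2c (AP-2 gamma). It went from 192 and 187 counts at 2 h to 137 and 119 at 6 h (log2 fold change -0.57, adjusted p = 0.0351 with the block). In the SOX and POU list, 2 of 181 were lower, both nearest to Sox13, where the intronic peak fell from 130.1 and 108 to 74.4 and 60.7 counts (-0.82, adjusted p = 0.00331). The Tet2 intronic peak fell from 164 and 191 to 113 and 119.8 counts (-0.61, adjusted p = 0.0243), while the Tet3 promoter rose as given above. These DNA demethylation genes thus had 1 call in each direction among 134 peaks of their list. In the mesendoderm and neural list the lower calls, 2 of 124, were the Hes5 peak and one 65.3 kb before Gsc, a homeobox gene of the organizer, with 78.3 and 65.5 counts at 2 h and 55.1 and 31.5 at 6 h (-0.75, adjusted p = 0.0470). The FGF-ERK list had 1 lower call among 302 peaks, near the ERK feedback inhibitor gene Spry4 (-0.68, adjusted p = 0.0281). The primitive endoderm list had 0 calls among 93 peaks and the Hippo-YAP list 0 among 201. Ribosomal protein genes, as housekeeping genes, had 1 lower call among 641 peaks.

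Falling sites differed from others in their sequence. The comparison used 200 bp around the summit, since the blocked lower calls were wider (median 1022 bp) than all peaks (711 bp). The TCF-LEF letters ATCAAAG occurred in 10.3% of the lower calls, 3.91% of the higher calls and 3.75% of all peaks. The ESRRB letters CAAGGTCA occurred in 11.4%, 5.03% and 4.52%, the ZIC letters CTGCTGTG in 6.35%, 3.91% and 3.82%, and the GATA letters AGATAA in 10.2%, 5.03% and 6.27%. The KLF letters GGGTGTGG or GGGCGTGG were in 10.7%, 6.15% and 7.84%. The SOX core by itself was not particular to falling sites, at 26.9% of the lower calls and 24.9% of all peaks, although it was in 53.4% of the early lost peaks. Composite sites, which also count as SOX matches, were in 2.18% of the lower calls, 0.559% of the higher calls and 0.736% of all peaks. All motifs were searched on both strands, and these shares are a description.

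Splitting the lower calls by their early state divided these motifs. Of the 141 that had been lost early, 37.6% held a SOX core, 7.09% a composite site and 19.9% the ESRRB letters, and 2.84% held the TCF-LEF letters. Over all 9091 early lost peaks with sequence these shares were 53.4%, 5.59%, 6.49% and 5.08%. The 141 thus held SOX cores less often and the ESRRB letters more often than early lost peaks in general. Repeated sequence was not annotated, so matches in copies of the same element would count separately in these shares and those above. In the other lower calls the shares were 23.2% for SOX, 0.488% for the composite, 8.54% for ESRRB and 12.9% for TCF-LEF. The windows near Ccnd1 and Lefty1 (early lost) and near Loxl4, Tmem132b and Rybp (not lost early) show these 2 kinds. Of the 12 peaks called without the block, 3 held TCF-LEF letters and 2 a SOX core in the window. Among rising sites, the TFCP2L1 motif was in 10.6% and the TFAP2 letters GCCNNNGGC in 16.8%, against 4.72% and 8.82% of all peaks. At rising promoters alone TFAP2 was in 37.9%, where 17.4% of all promoters held it. Outside promoters it was in 6.61% of rising peaks, against 7.70% of all peaks there, so its excess lay at promoters. Rising promoters were also richer in GC (median 61.9%) than all promoters (56.7%), as are the TFAP2 letters. What GC content adds to this share was not tested. Rising peaks outside promoters held the TEAD letters GGAATGT in 11.6%, against 4.70% of all peaks there, and TFCP2L1 in 11.6% against 4.65%. Over all 1180 peaks with a composite site the median change from 2 to 6 h was -0.12, and over the 6009 with TCF-LEF letters it was -0.06.

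**Figure D4:**
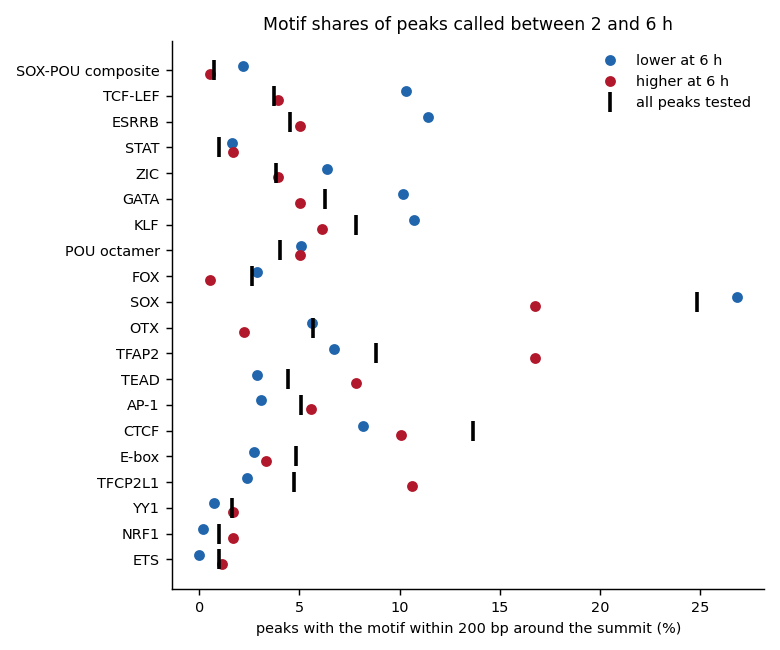
Share of peaks with each motif within 200 bp around the summit (horizontal axis, percent) for the lower (blue) and higher (red) calls of the blocked fit and for all peaks tested (black bars), sorted by the ratio of blue to black. TCF-LEF and ESRRB stand at 10.3% and 11.4% of the lower calls against 3.75% and 4.52% of all peaks, and TFAP2 and TFCP2L1 at 16.8% and 10.6% of the higher calls.

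The calls were then followed in libraries that this contrast does not compare, though those of SOX2-FKBP entered its fit. At 24 h against NT, 452 of the 551 lower calls (82.0%) were lost, where 14.1% of all peaks were, and 1 was gained. The 452 include all 141 lower calls lost early, whose early loss was called against the same NT libraries. Of the 49 lower calls gained early, 21 (42.9%) were lost at 24 h. Of the 180 higher calls 120 (66.7%) were gained at 24 h, where 9.17% of all peaks were, and 1 was lost. The median log2 fold changes at 24 h were -1.60 for the lower calls, 0.82 for the higher calls and 0.04 for all peaks. The changes between 2 and 6 h were thus mostly in the direction of the state at 24 h. Of the 361 lower calls without an early call, 290 (80.3%) were lost at 24 h, and their median level went from 83.7 counts at 2 h to 46.9 at 6 h, with 32.0 at 24 h. Both sets of calls lean to strong peaks (median 97.4 and 47.2 counts in NT against 28.2 for all), in which changes are called more easily.

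The same peaks mostly leaned the same way after OCT4 loss. Between 2 and 6 h in OCT4-FKBP, 465 of 546 lower calls (85.2%) that could be tested there had a negative log2 fold change, against 50.5% of all peaks, with a median of -0.41 (-0.38 and -0.34 in the replicate pairs). Of the higher calls 137 of 178 (77.0%) had a positive one, with a median of 0.20. In the blocked fit of the 3 lines OCT4-FKBP had 808 lower (0.485% of 166430 peaks) and 271 higher (0.163%) calls of its own. In that same fit SOX2-FKBP had only 31 lower and 2 higher calls. The overlap below sets the SOX2-FKBP calls of the 12 library fit against the OCT4-FKBP calls of the 27 library fit, so the lists come from unlike fits. Among peaks tested in both fits, the lists shared 79 lower calls (14.5% of 546 in SOX2-FKBP and 10.0% of 788 in OCT4-FKBP) and 4 higher calls (2.25% of 178 and 1.51% of 265). Among the named peaks the Myc site fell by 1.68 on the log2 scale in OCT4-FKBP (adjusted p = 0.0191 in edgeR's test without the block). The Loxl4 site fell by 1.24 and the Cxcl12 site by 1.23 (adjusted p = 0.00135 and 0.00645 with the block), and the Bcl11b site rose by 1.00 (adjusted p = 0.00471 with the block). Without the block the Loxl4, Cxcl12 and Bcl11b sites did not pass edgeR's test (adjusted p = 0.331, 0.331 and 0.467). At the Ccnd1 and Nrp2 sites the values were -0.57 and -0.35, and these did not pass.

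In NANOG-FKBP the medians of these peaks between 2 and 6 h were nearer to 0. Such a change leaves out what a site lost before 2 h. At the Myc site NANOG-FKBP had 259 and 237 counts in NT and 26.8, 37.3 and 39.65 at 2 h. The Fat2 site had 290 and 156 in NT and 38.6, 31.05 and 45.3 at 2 h. No such fall was seen at the Nrp2 site, with 519 and 344 in NT and 489, 422 and 355 at 2 h. What these earlier falls add to the medians was not tested. The median change from 2 to 6 h in NANOG-FKBP was -0.11 for the lower calls (-0.14, -0.10 and -0.05 in the 3 replicate pairs) and 0.06 for the higher calls, and 64.5% of the lower calls were negative, against 47.4% of all peaks. No peak at all was called between 2 and 6 h in that line, with or without the block (3792 at an unadjusted p under 0.05 without it). Direct tests of a difference between the lines called little. For SOX2-FKBP against OCT4-FKBP, 0 peaks had a different change from 2 to 6 h without the block, 3442 at an unadjusted p under 0.05 and 0 by DESeq2, and 2 with the block (0.0012% of those tested). For SOX2-FKBP against NANOG-FKBP there were 0 with and without the block and 4041 at an unadjusted p under 0.05. The changes in the 3 lines were therefore not distinguishable peak by peak at 2 or 3 libraries a group, which does not show that they are alike. In NANOG-FKBP replicate 2 was shallow (1817191 and 3272168 fragments at 2 and 6 h) with 17.6% and 13.2% of mitochondrial fragments, and its part in these values was not tested.

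**Figure D5:**
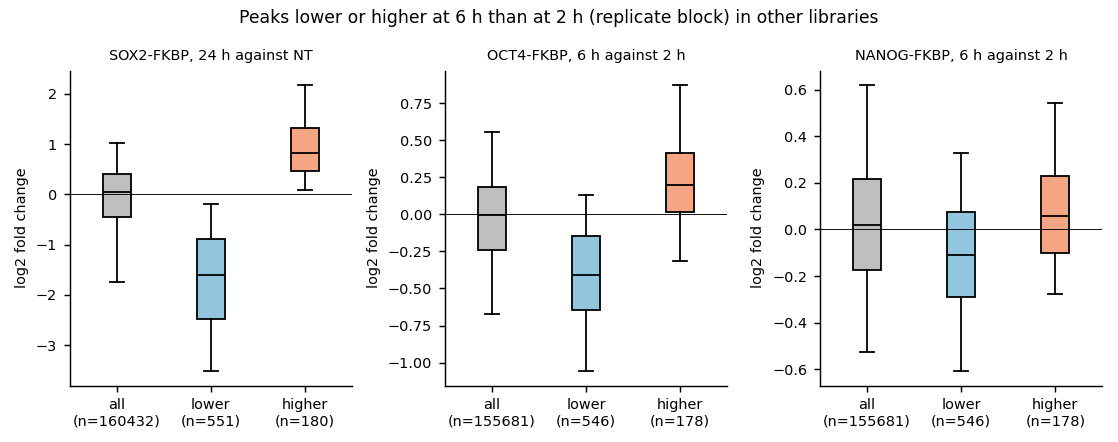
Log2 fold changes (vertical axes) of all peaks tested and of those lower or higher at 6 h than at 2 h in the blocked SOX2-FKBP fit. The panels show other comparisons: SOX2-FKBP at 24 h against NT, and 6 h against 2 h in OCT4-FKBP and NANOG-FKBP. The SOX2-FKBP libraries at 24 h and NT were part of the blocked fit but not of its 6 h against 2 h contrast. Boxes span the quartiles with the median as a line, and whiskers reach the 5th and 95th percentiles. Lower peaks have medians of -1.60, -0.41 and -0.11.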

How the data were processed

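ATACseq was performed with Tn5 on the same number of cells per library. Per the study's methods and the submitters' processing notes, the authors aligned reads to mm10 with BWA (0.7.17-r1188), handled alignments with SAMtools (1.10), removed duplicates with Picard (2.12.0), used MACS2 on the merged libraries to call peaks, and deposited a table of raw fragment counts per peak, together with the peak positions and summits. Pooled peak calling favours sites that are open in deeper or more numerous libraries. Of 45 samples, 31 have a column in the deposited count table and 14 were not analysed here. No column of another sample was present.

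A peak entered the test if over 2 of the 12 SOX2-FKBP libraries each held over 10 counts. Testing was done with edgeR 4.0.16 (TMM factors, quasi-likelihood test, 1 coefficient per time, R 4.3.3), with Benjamini-Hochberg adjustment over all peaks and a threshold of 0.05. Normalized counts are counts scaled by TMM factors to the mean library size. The 3 lines were compared in a fit of 27 libraries (over 10 counts in over 6). DESeq2 1.42.0 and limma 3.58.1 (loess offsets) served for alternatives, and Python 3.11.15 for tables. Code was tested on simulated data. Peaks were assigned to the nearest protein-coding start within 100 kb, and a promoter peak lies within 500 bp of a start.

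The labels give replicate numbers without saying what they share. Over 15 pairs of SOX2-FKBP conditions, deviations of same-numbered libraries correlated at 0.083 to 0.235 over all peaks, with 4 pairs at or under 0.1, and at 0.121 to 0.508 over 47033 peaks with a mean of at least 50 counts. Pairing thus passes the limit of 0.1 in every pair only for strong peaks, and calls with the block should be read with that in mind.

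Named peaks are the 10 lowest and 10 highest changes among called peaks with a mean of at least 50 counts in the higher group and libraries that do not overlap, the smallest p in each direction on each gene list, genes with at least 3 called peaks, and the 5 smallest p among early lost peaks. Other peaks named were added for their values. The groups, lists and rules were chosen with earlier results of these data known. The same naming rule on the calls with the block was added after seeing the data.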

Additional observations from a re-analysis of the deposited data

Results flagged for a closer look

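For 2 peaks the change from 2 to 6 h differed between SOX2-FKBP and OCT4-FKBP in the test of the difference with the replicate block. The intergenic peak 105.2 kb before Tmem132c, a transmembrane protein gene, rose in OCT4-FKBP from 43.2 and 23.6 to 132 and 104 normalized counts, while SOX2-FKBP had 44.3 and 43.9 at 2 h and 43.2 and 29.2 at 6 h. The SOX2-FKBP change minus the OCT4-FKBP change was -2.18 on the log2 scale (adjusted p = 0.00158). At the intronic peak of Cfap77, a gene of cilia and flagella, OCT4-FKBP went from 9.18 and 23.6 to 29.4 and 61.0 and SOX2-FKBP from 57.5 and 58.0 to 45.9 and 34.7, a difference of -1.97 (adjusted p = 0.0396). Without the block neither was called, and the lines also differ in background (E14 and V6.5).

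At 4 of 50 named peaks the 2 h and 6 h libraries did not overlap in either line and the lines moved in opposite directions. In SOX2-FKBP alone, 18.3% of all peaks were apart downwards and 18.6% upwards. The share of all peaks apart in opposite directions in the 2 lines was not computed, so these 4 are a description. The log2 change in OCT4-FKBP was -0.69 at the Zfp618 peak, -0.12 at the Lef1 promoter, 0.13 at the Hes5 peak and -0.49 at the peak nearest Sox21, where SOX2-FKBP had 0.95, 0.70, -0.72 and 1.12. The difference was tested at each and was not called, with an adjusted p of 1.0 in edgeR's test without the block.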

How the results depend on the processing

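The number of calls depended strongly on the fit, and the cause was not tested. Of lower peaks there were 12 in edgeR's test, 3 by DESeq2, 28 with total counts, 39 with loess offsets, 148 on the 2 h and 6 h libraries alone, 551 with the replicate block, 584 with the block and GC offsets, 0 on 27 libraries (5198 peaks of either direction at an unadjusted p under 0.05) and 0 to 5 without 1 library. Of higher peaks there were 1 in edgeR's test, 0 by DESeq2, with GC offsets and on 27 libraries, 2 with loess offsets, 18 on the 2 h and 6 h libraries alone, 180 with the replicate block, 164 with the block and GC offsets, and 0 to 0 without 1 library. With the block, lower calls were 1455 on the 2 h and 6 h libraries alone, 22 by DESeq2, 31 on 27 libraries and 7, 12, 95 and 190 without 1 library, and higher calls 1070, 2, 2 and 0, 0, 11 and 31, with 118 under total counts. A group left with 1 library was assumed to vary like the others.

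The median of early lost peaks (-0.18) stayed negative, at -0.19 by DESeq2, with its size factors and on the 2 h and 6 h libraries alone, -0.21 with total counts, -0.18 with GC offsets, -0.17 with at least 10 counts in every library, -0.20 on 27 libraries and -0.26 to -0.12 without 1 library. The promoter median (0.13) was 0.10 with total counts, 0.071 with loess offsets, 0.057 with GC offsets with or without the block, and 0.089 to 0.16 without 1 library. The difference between SOX2-FKBP and OCT4-FKBP was called at 0 peaks, and at 2 with the replicate block. Over 740 pairs of a named peak and a setting, 0 changed direction. The named peaks were picked for large changes or small p in these same libraries. A reversal was therefore unlikely from the start, and the count is a description. The settings for counts with the block and for promoters were chosen after seeing the data. With 2 libraries a group, an exact permutation test of a single peak cannot go below p = 0.333.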
